A study of Mus musculus with 12 samples.

Results

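Erg, Fli1, Sox7, Sox17, Sox18, Gata2, Tal1, Lyl1, Nr2f2 and Foxf1 are transcription factors that set and maintain endothelial identity, and they were followed here by name through the expression table of a mouse lung endothelial cell (MLEC) experiment. All 10 were found among the 28689 genes of the table, and all 10 reached the expression minimum for testing, as did 12467 genes in all. The study asked how loss of the transcription factors Sp1 and Sp3 in the endothelium changes the endothelial transcriptome. Control (CTR) mice were VE-CAD-CreERT2-/Sp1 fl/fl/Sp3 fl/fl littermates, which the sample labels give as WT, and knockout (dKO) mice were VE-CAD-CreERT2+/Sp1 fl/fl/Sp3 fl/fl. Both groups carried the floxed alleles, both received tamoxifen, and each gave 6 libraries. Cre was driven by the VE-cadherin promoter, so recombination was limited to cells in which that promoter is active. The MLECs came from digested adult lungs, were selected with magnetic beads for CD31 and then for ICAM2, and were used after a few passages in culture. How many mice went into a library is not given in the sources used here, and the p-values measure the spread between these libraries. The libraries held 15523054 to 17938286 fragments, and expression is given as FPKM, fragments scaled to gene length and library total, which allows levels to be compared between genes of different length.

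The factors belong to a small circuit. ERG and FLI1 are closely related ETS proteins that hold endothelial junction and lineage genes active and keep inflammatory genes low. SOX7, SOX17 and SOX18 form the SoxF group, which acts in arterial and lymphatic specification, GATA2 binds endothelial and blood enhancers together with the bHLH factors TAL1 and LYL1, NR2F2 (COUP-TFII) favours venous and lymphatic fate over arterial fate, and FOXF1 is a mesenchymal and lung endothelial forkhead factor required for the alveolar capillary bed. Fli1, Tal1, Lyl1 and Gata2 are used by blood lineages as well as by endothelium, and Nr2f2 and Foxf1 by fibroblasts of the lung as well, so a bulk library cannot assign their RNA to 1 cell type.

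The mRNA of 6 of the 10 factors was higher in dKO than in CTR, that of Nr2f2 was lower, and Sox7, Gata2 and Foxf1 did not pass the test (limma on log2(FPKM + 1), adjusted p under 0.05). Of all genes tested, 53.1% passed this test, 20.4% as higher and 32.6% as lower in dKO. The median log2 fold change of the 10 factors was 0.44, beside −0.10 for all genes tested. None of the 10 passed the test together with a log2 fold change beyond 1.5 in either direction, a combination that 1.98% of the genes reached. Erg and Sox18 rose by more than 1 on the log2 scale, as did 3.83% of the genes. For Erg, Fli1, Sox18 and Tal1 every dKO library lay above every CTR library, which was the case for 11.3% of the genes tested, while 27.4% were free of overlap in either direction. In these bulk libraries, a change in the share of a cell type and a change in RNA per cell cannot be told apart.

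**Figure D1:**
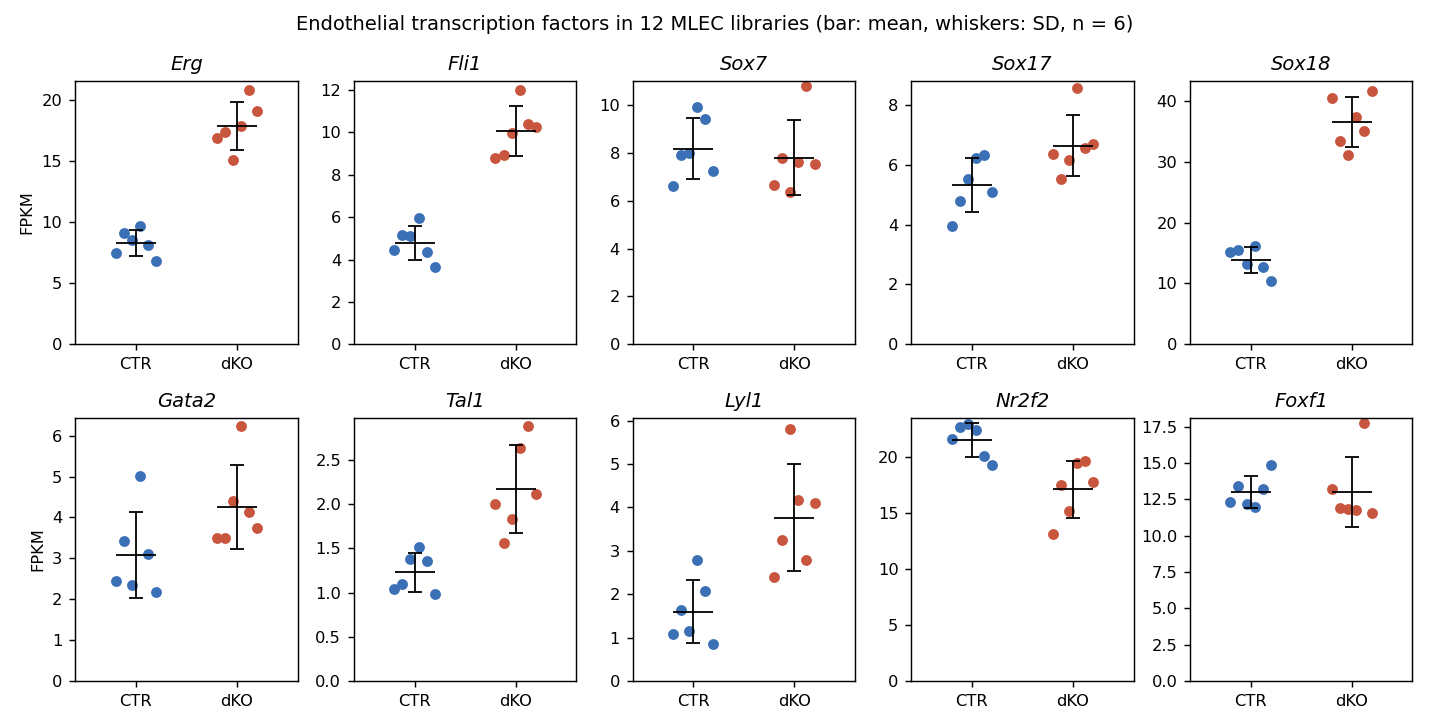
Expression of the 10 factors in FPKM (vertical axes, each starting at 0) in the 6 CTR and 6 dKO libraries, 1 point per library, with the mean as a bar and the SD as whiskers. The 2 clouds are apart for Erg, Fli1, Sox18 and Tal1, touch for Lyl1 and Nr2f2, and lie side by side for Sox7 and Foxf1.

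The targeted genes and the cell type markers frame these values. Sp1 was 21.2 ± 1.77 FPKM in CTR and 10.6 ± 1.53 FPKM in dKO (SD, n = 6 each), without overlap, a log2 fold change of −0.94 (adjusted p = 5.68e-06, limma). Sp3 was 27.7 ± 2.31 FPKM in CTR and 25 ± 1.64 FPKM in dKO (SD, n = 6 each) and did not pass the test (log2 fold change −0.14, adjusted p = 0.0902, limma). The table gives 1 value per gene, so fragments from exons outside a floxed stretch are counted too, and for Sp3 the test gives no call on the loss that the label states. Sp3 did pass as lower when rescaled to TPM (−0.20, adjusted p = 0.0496, limma) and without CTR replicate 6 (−0.18, adjusted p = 0.0326, limma). Relative to the endothelial markers it passed as well (−0.93, adjusted p = 4.92e-05, limma), where the median of all genes tested was −0.78. In 20 of 23 alternatives Sp3 did not pass, with −0.056 under median-of-ratios scaling (adjusted p = 0.510, limma) and −0.058 under limma-voom (adjusted p = 0.514). Of 12 endothelial markers, 11 were higher in dKO and none lower, and their summed level was 166 to 270.0 FPKM in CTR and 304 to 420 FPKM in dKO. All 10 macrophage markers were higher, with sums of 697 to 1230 FPKM in CTR and 2252 to 4946 FPKM in dKO, and none of them was at 0 in all libraries of a group. Fibroblast markers summed to 2144 to 2721 FPKM in CTR and 858 to 1677 FPKM in dKO, with 3 of 8 tested markers lower and 1 higher. The 3 lower were the collagen genes Col1a1, Col1a2 and Col3a1, on which that sum mostly rests. Dcn rose from a mean of 6.82 FPKM to 17.8 FPKM. Pdgfra, at means of 117 FPKM in CTR and 104 FPKM in dKO, did not pass (adjusted p = 0.564, limma), nor did Thy1, Postn and Tcf21. Apart from Col1a1, these fibroblast markers were chosen after their values were seen. The part of these shifts in the levels of the 10 factors was not tested, except that the factors are also given below relative to the endothelial markers. Mmrn1, a lymphatic endothelial marker, had 845 to 1912 fragments per CTR library, whereas each of the 6 dKO libraries lists it at 0. It was chosen after its value was seen, and whether the groups differ in an allele beside the knockout was not tested.

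Promoter sequences were available for 5 of the 10 factors in a RefSeq table of the mouse build GRCm38.p6, which covers 250 bases before to 50 bases after each annotated start. These were Erg with 3 starts, Gata2 with 2, Tal1 with 2, and Lyl1 and Nr2f2 with 1 each; Fli1, Sox7, Sox17, Sox18 and Foxf1 had no entry. The factors that changed are shown, with Erg represented by its first start, because Sp1 and Sp3 are proteins that bind GC boxes and because several of the factors moved together. Each sequence is written 5′ to 3′ on the strand of the gene, and capitals mark exact matches, on either strand, to 1 of 4 short motifs. The GC box was searched as GGGCGG. For the ETS family the letters searched were CGGAAG, the core that these proteins favour. For the factors of the GATA family the motif was AGATAA. The SOX proteins were represented by ACAATG, and no match of 1 motif overlapped a match of another in the promoters shown.
Erg, chr16:95586544-95586843, minus strand: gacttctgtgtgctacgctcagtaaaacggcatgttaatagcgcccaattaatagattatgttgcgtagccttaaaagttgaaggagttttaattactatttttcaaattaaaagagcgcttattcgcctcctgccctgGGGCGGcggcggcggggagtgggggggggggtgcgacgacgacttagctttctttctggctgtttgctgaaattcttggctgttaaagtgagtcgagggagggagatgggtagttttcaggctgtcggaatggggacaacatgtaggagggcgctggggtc
Tal1, first start, chr4:115056176-115056475, plus strand: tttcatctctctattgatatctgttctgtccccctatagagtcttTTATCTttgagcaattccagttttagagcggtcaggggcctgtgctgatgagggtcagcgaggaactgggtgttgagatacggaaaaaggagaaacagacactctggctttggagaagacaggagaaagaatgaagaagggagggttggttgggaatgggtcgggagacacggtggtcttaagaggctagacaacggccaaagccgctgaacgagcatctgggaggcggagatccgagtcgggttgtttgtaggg
Tal1, second start, chr4:115057561-115057860, plus strand: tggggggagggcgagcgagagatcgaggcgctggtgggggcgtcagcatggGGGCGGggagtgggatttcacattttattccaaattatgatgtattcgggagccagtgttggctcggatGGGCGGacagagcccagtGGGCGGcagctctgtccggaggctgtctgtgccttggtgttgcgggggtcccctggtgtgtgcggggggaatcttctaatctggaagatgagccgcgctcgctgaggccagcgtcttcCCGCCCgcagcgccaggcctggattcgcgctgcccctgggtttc
Lyl1, chr8:84701207-84701506, plus strand: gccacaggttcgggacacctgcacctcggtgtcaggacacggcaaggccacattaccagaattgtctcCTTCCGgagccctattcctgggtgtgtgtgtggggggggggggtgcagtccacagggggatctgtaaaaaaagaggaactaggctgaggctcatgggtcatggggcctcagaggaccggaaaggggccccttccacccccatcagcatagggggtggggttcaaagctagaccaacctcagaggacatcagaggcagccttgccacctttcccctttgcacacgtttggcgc
Nr2f2, chr7:70366697-70366996, minus strand: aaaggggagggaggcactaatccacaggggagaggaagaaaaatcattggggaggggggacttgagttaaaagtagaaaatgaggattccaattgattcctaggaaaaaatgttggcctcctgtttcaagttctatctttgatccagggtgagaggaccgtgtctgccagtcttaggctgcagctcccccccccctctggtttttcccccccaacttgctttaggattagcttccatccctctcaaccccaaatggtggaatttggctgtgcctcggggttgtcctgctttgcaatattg
The Erg promoter held 1 GC box match and the promoter at the second Tal1 start held 4, whereas the first Tal1 start held a single GATA match and the Lyl1 promoter a single ETS match. The Nr2f2 promoter held none of the 4 motifs. Of 32851 promoters of this length in the table, 35.7% held at least 1 GC box match and 10.7% held 3 or more, 16.9% held the ETS motif, 11.2% the GATA motif and 12.6% the SOX motif. Of the promoters that are not printed, the first Gata2 start held 1 GC box match and the second 3, the second Erg start held no match, and the third Erg start held 1 GATA and 1 SOX match. GC content was 50.3% in the Erg promoter, 60.0% in that of Lyl1, 49.7% in that of Nr2f2 and 64.3% at the second Tal1 start, beside a median of 52.7% over all promoters. A match is a description of letters and says nothing on binding.

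The 2 ETS factors rose together. Erg (ENSMUSG00000040732; GRCm39 chr16:95160028-95387452, minus strand), the ETS factor most restricted to endothelium among blood vessel cells, ran from 6.83 to 9.66 FPKM in CTR with a median of 8.32 FPKM. In dKO it ran from 15.0 to 20.8 FPKM with a median of 17.7 FPKM. The lowest dKO library was thus well above the highest CTR library. The mean rose from 8.27 ± 1.04 FPKM to 17.9 ± 1.97 FPKM (SD, n = 6 each), 2.16 times the CTR mean. On the log2(FPKM + 1) scale this was a rise of 1.03 (SE 0.09, 95% interval 0.83 to 1.22, adjusted p = 3.00e-06, limma), and the two-sided exact permutation test of this gene gave p = 0.00216, the smallest that the splits of 12 libraries into 6 and 6 can give. Of the genes tested, 3.69% rose more than Erg. By level, Erg moved from above 52.4% of the genes tested in CTR to above 76.1% in dKO.

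Fli1 (ENSMUSG00000016087; GRCm39 chr9:32333500-32454157, minus strand), the paralog that shares most targets with Erg and is also active in megakaryocytes and other blood cells, ran from 3.62 to 5.95 FPKM in CTR with a median of 4.79 FPKM. Its dKO libraries ran from 8.78 to 12 FPKM with a median of 10.1 FPKM. Again no dKO library fell into the CTR range. The mean went from 4.78 ± 0.808 FPKM to 10.1 ± 1.18 FPKM (SD, n = 6 each), a log2 fold change of 0.94 (SE 0.10, 95% interval 0.72 to 1.16, adjusted p = 1.15e-05, limma). The ratio of Erg to Fli1 within a library had a geometric mean of 1.74 in CTR (range 1.63 to 1.89) and 1.78 in dKO (range 1.49 to 2.0). The difference of the log2 ratio was 0.03 and did not pass the exact permutation test (p = 0.740, adjusted p = 0.740 over 5 ratios), and its sign turned to −0.0053 without dKO replicate 5. The rise of both genes held at adjusted p under 0.05 in each of the 12 fits that left out 1 library.

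The SoxF genes did not move as a group. Sox18 (ENSMUSG00000046470; GRCm39 chr2:181311629-181313438, minus strand), which acts upstream of Prox1 in lymphatic specification, ran from 10.4 to 16.2 FPKM in CTR with a median of 14.2 FPKM and from 31.1 to 41.8 FPKM in dKO with a median of 36.3 FPKM. The dKO libraries formed a separate group far above the CTR libraries. The mean rose from 13.9 ± 2.17 FPKM to 36.6 ± 4.12 FPKM (SD, n = 6 each), 2.64 times the CTR mean, with a log2 fold change of 1.34 (SE 0.11, 95% interval 1.12 to 1.57, adjusted p = 1.43e-06, limma). It was the largest rise among the 10 factors, and 1.87% of the genes tested rose more.

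Sox17 (ENSMUSG00000025902; GRCm39 chr1:4561151-4567784, minus strand), an arterial specification factor, ran from 3.94 to 6.34 FPKM in CTR with a median of 5.31 FPKM and from 5.52 to 8.57 FPKM in dKO with a median of 6.46 FPKM. The groups overlapped, with 4 of 6 dKO libraries above every CTR library. The mean was 5.32 ± 0.912 FPKM in CTR and 6.65 ± 1.03 FPKM in dKO (SD, n = 6 each), a log2 fold change of 0.28 (SE 0.11, adjusted p = 0.0491, limma) that lies at the threshold. The call was lost in 9 of the 12 fits without 1 library, namely without CTR replicate 1, 2, 3 or 6 or dKO replicate 1, 3, 4, 5 or 6, with log2 fold changes of 0.21 to 0.32 over all 12 fits.

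Sox7 (ENSMUSG00000063060; GRCm39 chr14:64181006-64188352, plus strand), the SoxF gene linked to early endothelial and haemogenic differentiation, ran from 6.61 to 9.94 FPKM in CTR with a median of 7.96 FPKM and from 6.37 to 10.8 FPKM in dKO with a median of 7.60 FPKM. The 2 groups covered almost the same range, and dKO replicate 5 was the highest of all 12 libraries. Means were 8.19 ± 1.27 FPKM (SD, n = 6) and 7.80 ± 1.57 FPKM (SD, n = 6), and the 95% interval of the log2 fold change ran from −0.32 to 0.19 (estimate −0.07, adjusted p = 0.646, limma). An increase of the size of that of Sox18 therefore lies outside the interval for Sox7.

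The unequal change can be read within each library, where no scaling between libraries enters. The ratio of Sox7 to Sox18 was 0.434 to 0.739 in CTR and 0.164 to 0.307 in dKO, without overlap, and its geometric mean fell from 0.591 to 0.211 (log2 difference −1.48, exact permutation p = 0.00216, adjusted p = 0.00541). The ratio of Sox17 to Sox18 was 0.259 to 0.498 in CTR and 0.157 to 0.229 in dKO, again without overlap (log2 difference −1.08, exact permutation p = 0.00216, adjusted p = 0.00541). Sox18 thus gained on both of its paralogs in every dKO library. Sox7 to Sox17 went from a geometric mean of 1.54 (range 1.43 to 1.68) to 1.17 (range 0.891 to 1.64), with overlapping groups (log2 difference −0.40, exact permutation p = 0.0216, adjusted p = 0.0361). That call was lost without CTR replicate 1, 2, 4 or 5 or dKO replicate 1, 3, 4 or 6, with log2 differences of −0.50 to −0.33 over the 12 left-out libraries. As a share of the summed SoxF FPKM, Sox18 went from 50.6 ± 5.49% to 71.6 ± 3.18% (SD, n = 6 each), while Sox7 went from 29.9 ± 2.68% to 15.3 ± 2.92% and Sox17 from 19.5 ± 2.88% to 13.0 ± 1.68% (SD, n = 6 each).

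**Figure D2:**
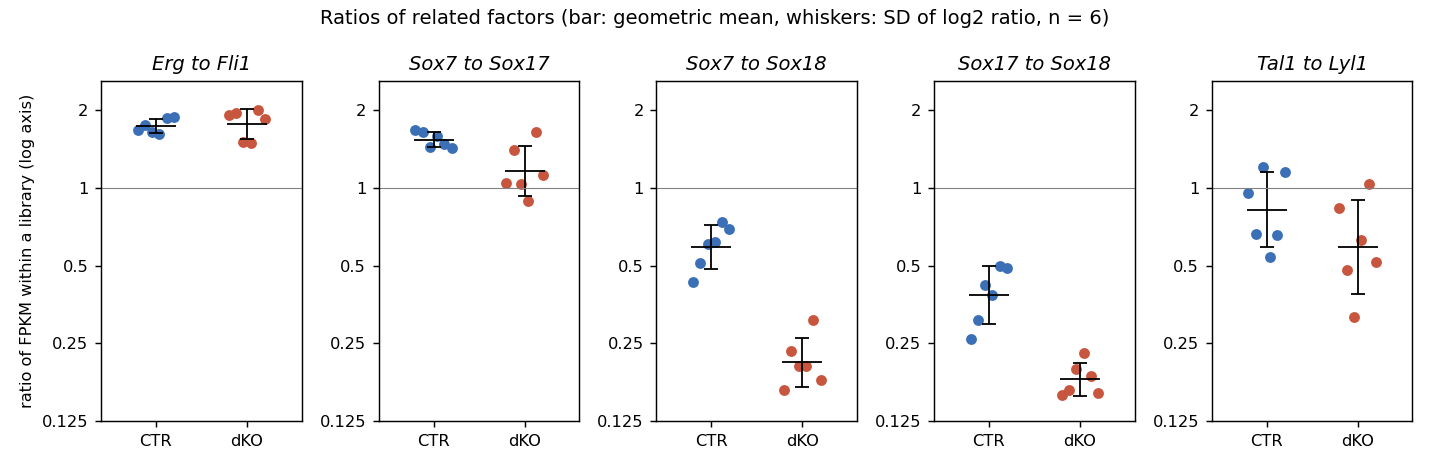
Ratio of the FPKM of 2 related factors within each library (vertical axis, log scale) for 5 pairs in 6 CTR and 6 dKO libraries, with the geometric mean as a bar and the SD of the log2 ratio as whiskers. Sox7 to Sox18 and Sox17 to Sox18 separate the groups, Erg to Fli1 lies at 1.49 to 2.0 in both.

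The GATA and bHLH factors were the lowest of the 10 in both groups, and Tal1 and Lyl1 rested on the fewest fragments. Tal1 (ENSMUSG00000028717; GRCm39 chr4:114913623-114928952, plus strand), a bHLH factor of endothelial and blood progenitors, ran from 0.979 to 1.52 FPKM in CTR with a median of 1.23 FPKM and from 1.57 to 2.88 FPKM in dKO with a median of 2.06 FPKM, which corresponds to 73 to 116 fragments per CTR library and 121 to 221 per dKO library. The groups met without overlapping. The log2 fold change was 0.50 (SE 0.11, 95% interval 0.27 to 0.73, adjusted p = 0.00184, limma), and since the pseudocount of 1 is large against these levels, the ratio of means of 1.77 is the larger change.

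Lyl1 (ENSMUSG00000034041; GRCm39 chr8:85427936-85431569, plus strand), the bHLH paralog of Tal1, ran from 0.849 to 2.80 FPKM in CTR with a median of 1.39 FPKM and from 2.40 to 5.82 FPKM in dKO with a median of 3.68 FPKM. The groups overlapped, with 4 of 6 dKO libraries above every CTR library, and the highest value was in dKO replicate 3, the library with the highest macrophage sum of 4946 FPKM. The lowest dKO value was in replicate 1, whose macrophage sum was 2836 FPKM, and the lowest dKO sum, 2252 FPKM, was in replicate 5. Lyl1 is active in myeloid cells as well, and the part of macrophages in its level was not tested. The mean went from 1.6 ± 0.736 FPKM to 3.76 ± 1.23 FPKM (SD, n = 6 each), a log2 fold change of 0.88 (SE 0.20, 95% interval 0.45 to 1.30, adjusted p = 0.00241, limma) and, with 26 to 184 fragments per library, the widest relative spread of the 10. Lyl1 shares 229 exonic bases, 7.68% of its exons, with Nfix on the opposite strand, and Nfix was at 25.6 ± 3.19 FPKM in CTR and 22.4 ± 1.90 FPKM in dKO (SD, n = 6 each). The length behind the FPKM of Lyl1 came out as 1800 bases, beside 2983 exonic bases in the annotation used for the overlap. Whether the shared stretch was counted for Lyl1 is therefore not known. The strand setting of the counting is not given in the sources used here either, so fragments of that stretch may be counted for either gene. Nfix is named for this overlap. Tal1 to Lyl1 had a geometric mean of 0.825 in CTR and 0.591 in dKO, with overlapping ranges of 0.542 to 1.21 and 0.315 to 1.03, and the log2 difference of −0.48 did not pass the test (exact permutation p = 0.160, adjusted p = 0.200).

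Gata2 (ENSMUSG00000015053; GRCm39 chr6:88170559-88184018, plus strand), the endothelial GATA factor, ran from 2.18 to 5.01 FPKM in CTR with a median of 2.77 FPKM and from 3.50 to 6.23 FPKM in dKO with a median of 3.94 FPKM. Only dKO replicate 4 exceeded the highest CTR library, which was CTR replicate 4. The log2 fold change of 0.38 (SE 0.16, 95% interval 0.03 to 0.73) did not pass after adjustment (adjusted p = 0.0618, limma). Without CTR replicate 4 it was 0.50 and passed (adjusted p = 0.00739, limma), and with median-of-ratios scaling it was 0.45 and passed as well (adjusted p = 0.0381, limma).

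Nr2f2 (ENSMUSG00000030551; GRCm39 chr7:70001692-70016519, minus strand), the venous fate factor, was the most abundant of the 10 in CTR and the only 1 to fall. It ran from 19.3 to 23.0 FPKM in CTR with a median of 22 FPKM and from 13.1 to 19.6 FPKM in dKO with a median of 17.7 FPKM. The groups overlapped, with 4 of 6 dKO libraries below every CTR library. The mean went from 21.5 ± 1.5 FPKM to 17.1 ± 2.56 FPKM (SD, n = 6 each), a log2 fold change of −0.32 (SE 0.09, 95% interval −0.53 to −0.12, adjusted p = 0.0113, limma). Each fit without 1 library kept the call, whereas median-of-ratios scaling gave −0.24 and did not pass (adjusted p = 0.0652, limma). Nr2f1, its paralog, was lower in dKO too, at 2.25 ± 0.165 FPKM in CTR and 1.4 ± 0.226 FPKM in dKO (SD, n = 6 each) without overlap, with a log2 fold change of −0.44 (adjusted p = 0.000371, limma). It was chosen after its value was seen.

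Foxf1 (ENSMUSG00000042812; GRCm39 chr8:121811074-121814883, plus strand) ran from 12 to 14.9 FPKM in CTR with a median of 12.8 FPKM and from 11.5 to 17.8 FPKM in dKO with a median of 11.9 FPKM. In dKO 5 libraries lay within 11.5 to 13.2 FPKM and replicate 5 stood at 17.8 FPKM. The means were 13.0 ± 1.09 FPKM and 13.0 ± 2.41 FPKM (SD, n = 6 each), and the 95% interval of the log2 fold change was −0.22 to 0.20 (adjusted p = 0.933, limma).

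The order of the factors by level changed between the groups. In CTR it was Nr2f2, Sox18, Foxf1, Erg, Sox7, Sox17, Fli1, Gata2, Lyl1 and Tal1 by mean FPKM, and the ranges of neighbours in this order overlapped except between Nr2f2 and Sox18, Foxf1 and Erg, and Sox7 and Sox17. In dKO the order was Sox18, Erg, Nr2f2, Foxf1, Fli1, Sox7, Sox17, Gata2, Lyl1 and Tal1. There only Sox18 and Erg, the first 2, had ranges that did not overlap. Sox18 went from above 68.6% of the genes tested to above 88.9%, Fli1 from 34.8% to 60.1%, and Nr2f2 from 79.9% to 75.0%.

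The extremes of several factors fell in the same libraries. In CTR, 7 of the 10 factors had their highest value in replicate 4, as had 25.8% of all genes tested, and 7 had their lowest in replicate 6, as had 24.8%. Foxf1 went the other way, with its highest CTR value in replicate 6 and its lowest in replicate 4. In dKO, 5 factors had their highest value in replicate 5 and 3 in replicate 4, beside 13.1% and 15.2% of all genes. Their lowest dKO values were scattered, with 4 in replicate 1, 3 in replicate 3, 2 in replicate 2 and 1 in replicate 6. The endothelial markers had a geometric mean, relative to the geometric mean of the 12 libraries, of 1.01 in CTR replicate 4 and 0.614 in CTR replicate 6, the highest and lowest of CTR, and of 1.62 and 1.56 in dKO replicates 4 and 5, the highest of dKO. The coefficient of variation of a factor in a group ranged from 6.97% to 46.0%.

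Dividing each library by the geometric mean of the 12 endothelial markers gave the factors relative to the other endothelial genes. This scaling lowered the median log2 fold change of all genes tested from −0.10 to −0.78, and 85.0% of the genes then passed the test, 81.7% as lower and 3.37% as higher in dKO. Of the 10 factors, 2 were then higher, 4 lower and 4 not past the test. Sox18 was still higher, by 0.56 (adjusted p = 0.00196, limma), and so was Erg, by 0.27 (adjusted p = 0.0397, limma). Fli1 (0.23, adjusted p = 0.0744), Lyl1 (0.33, adjusted p = 0.0948), Tal1 (−0.0057, adjusted p = 0.960) and Gata2 (−0.25, adjusted p = 0.0748) did not pass (limma). Lyl1 and Fli1 had estimates close to that of Erg, so these values do not separate Erg from them. Nr2f2 (−1.10, adjusted p = 5.36e-06), Sox7 (−0.79, adjusted p = 2.62e-05), Foxf1 (−0.77, adjusted p = 0.000424) and Sox17 (−0.42, adjusted p = 0.00473) were lower relative to the markers (limma). Of these, Sox7 and Foxf1 lay close to the median of all genes under this scaling, Nr2f2 below it and Sox17 above it. The 12 markers include Pecam1 and Icam2, which encode the antigens of the bead selection, Cdh5, whose promoter drives Cre, and genes that the factors themselves are known to regulate.

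**Figure D3:**
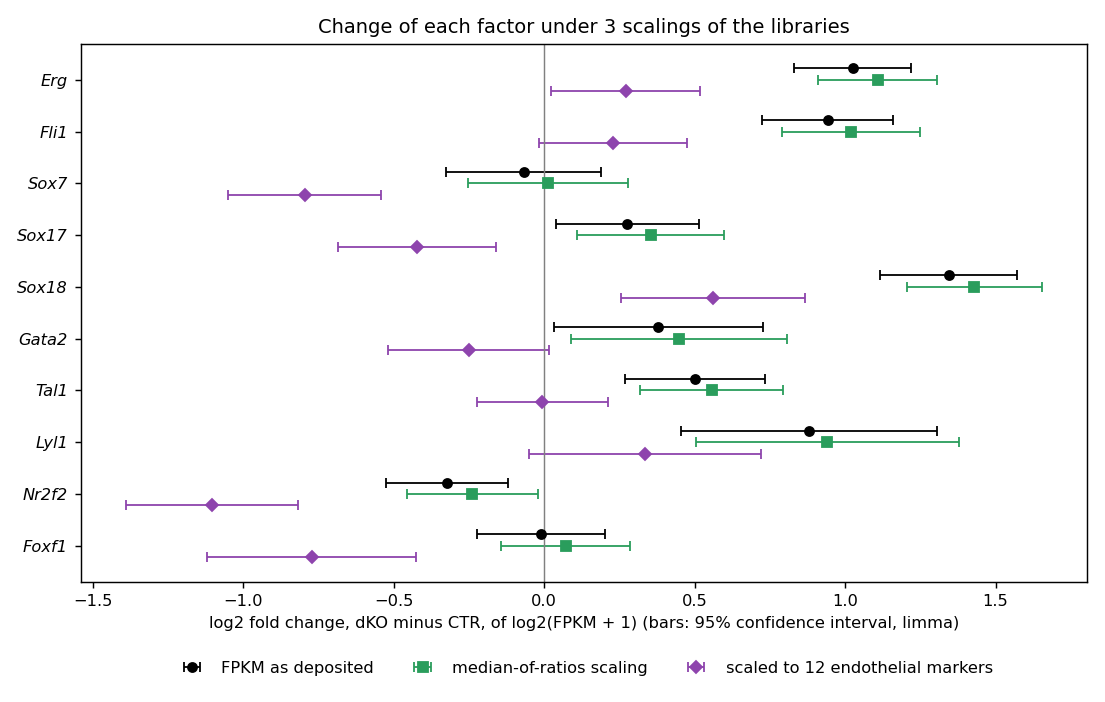
Log2 fold change of each factor (horizontal axis, dKO minus CTR, of log2(FPKM + 1)) with its 95% confidence interval from limma under 3 scalings of the 12 libraries. Sox18 and Erg stay above 0 under all 3, Nr2f2 stays below 0, and Sox17 moves from 0.28 to −0.42 with endothelial marker scaling.

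The rest of the ETS family showed no common direction. Of 16 other ETS genes that reached the expression minimum, 5 were higher, 3 lower and 8 did not pass, with a median log2 fold change of 0.06. Spi1, the ETS factor of macrophages and other myeloid cells, rose from 8.11 ± 1.89 FPKM to 16.6 ± 3.86 FPKM (SD, n = 6 each), by 0.95 on the log2 scale (SE 0.15, adjusted p = 0.000205, limma), beside the rise of all 10 macrophage markers. Elk3, a ternary complex factor with a role in endothelium, rose from 12.1 ± 1.97 FPKM to 21.7 ± 2.01 FPKM (SD, n = 6 each), by 0.80 (SE 0.10, adjusted p = 3.67e-05, limma). Elk1, its relative, fell by 0.49 on the log2 scale (SE 0.12, adjusted p = 0.00349, limma). Ets2, the most abundant ETS gene, was 44.2 ± 10.004 FPKM in CTR and 33.2 ± 7.20 FPKM in dKO (SD, n = 6 each) and did not pass (adjusted p = 0.0573, limma).

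Among the other SOX genes 5 reached the minimum, of which 2 were higher, 1 lower and 2 not past the test, with a median log2 fold change of −0.12. Sox12, a SoxC factor, fell from 4.47 ± 0.563 FPKM to 2.09 ± 0.233 FPKM (SD, n = 6 each), by 0.82 on the log2 scale (SE 0.08, adjusted p = 6.97e-06, limma). Sox9, a factor of cartilage and epithelial progenitors, rose by 0.40 (adjusted p = 0.00695, limma), and Sox13, a SoxD factor, by 0.34 (adjusted p = 0.00868, limma). Sox4, the most abundant of the 5, was 14.4 ± 1.75 FPKM in CTR and 13.3 ± 2.42 FPKM in dKO (SD, n = 6 each; adjusted p = 0.393, limma).

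Of the 14 tested GATA, LIM-domain and bHLH partners, 3 were higher, 4 lower and 7 not past the test, with a median log2 fold change of −0.20. Lmo2, the LIM-only bridge of the TAL1 and GATA complex, rose from 5.57 ± 1.12 FPKM to 15.0 ± 1.88 FPKM (SD, n = 6 each) without overlap, by 1.29 on the log2 scale (SE 0.11, adjusted p = 3.07e-06, limma). Ldb2, a LIM-domain binding cofactor, rose from 7.48 ± 1.34 FPKM to 13.2 ± 2.37 FPKM (SD, n = 6 each), by 0.74 (SE 0.13, adjusted p = 0.000341, limma). Lmo4, the most abundant of the list over all 12 libraries though below Ldb1 and Cbfb in dKO, and a LIM-only protein of wider expression, went the other way, from 31.2 ± 2.48 FPKM to 19.6 ± 1.27 FPKM (SD, n = 6 each), a log2 fold change of −0.65 (SE 0.07, adjusted p = 8.74e-06, limma). Tcf3 and Tcf12, which encode E proteins that pair with TAL1 and LYL1, were among the 4 lower genes, with log2 fold changes of −0.45 (adjusted p = 0.000362, limma) and −0.52 (adjusted p = 0.000200, limma); they were chosen after their values were seen.

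Of 18 other vessel fate factors tested, 9 were higher, 2 lower and 7 not past the test, with a median log2 fold change of 0.31. Prox1, the lymphatic fate factor that acts downstream of SOX18 and partners with NR2F2, rose from 1.08 ± 0.248 FPKM to 4.36 ± 1.65 FPKM (SD, n = 6 each), by 1.32 (SE 0.16, adjusted p = 3.61e-05, limma). Epas1, which encodes the hypoxia factor HIF2A and was the most abundant of the list, rose from 22.7 ± 5.68 FPKM to 43.8 ± 9.76 FPKM (SD, n = 6 each), by 0.92 (SE 0.17, adjusted p = 0.000634, limma). Foxm1, a factor of dividing cells, fell from 9.88 ± 4.32 FPKM to 4.96 ± 1.00 FPKM (SD, n = 6 each), by 0.79 on the log2 scale (SE 0.22, adjusted p = 0.00930, limma).

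Endothelial genes known as targets of these factors were mostly higher. Of 30 tested, 21 were higher, none lower and 9 not past the test, beside 20.4% of all genes tested that were higher. The median log2 fold change of the list was 0.53. This list holds all 12 endothelial markers, so its count and that of the markers are not separate. Thbd (thrombomodulin) rose from 18.6 ± 3.37 FPKM to 48.7 ± 9.97 FPKM (SD, n = 6 each), by 1.34 (SE 0.14, adjusted p = 9.67e-06, limma). Tie1, an endothelial receptor tyrosine kinase, rose from 16.1 ± 2.56 FPKM to 39.7 ± 3.37 FPKM (SD, n = 6 each), by 1.26 (SE 0.10, adjusted p = 1.12e-06, limma), and Icam2, an adhesion molecule and classical ERG target, from 4.95 ± 1.38 FPKM to 13.0 ± 2.40 FPKM (SD, n = 6 each), by 1.25 (SE 0.15, adjusted p = 2.35e-05, limma). Cdh5 (VE-cadherin), the most abundant, rose from 88.9 ± 16.1 FPKM to 140 ± 17.1 FPKM (SD, n = 6 each), by 0.66 (SE 0.12, adjusted p = 0.000527, limma). Not every gene of this list was higher, and whether the factors drove the rise of the others was not tested. The arterial Notch ligand Dll4 was 13.5 ± 2.49 FPKM in CTR and 12.6 ± 1.92 FPKM in dKO (SD, n = 6 each; adjusted p = 0.581, limma), and Flt1, a VEGF receptor, was 4.84 ± 0.604 FPKM and 5.35 ± 1.27 FPKM (adjusted p = 0.461, limma). These 2 were chosen after their values were seen.

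**Figure D4:**
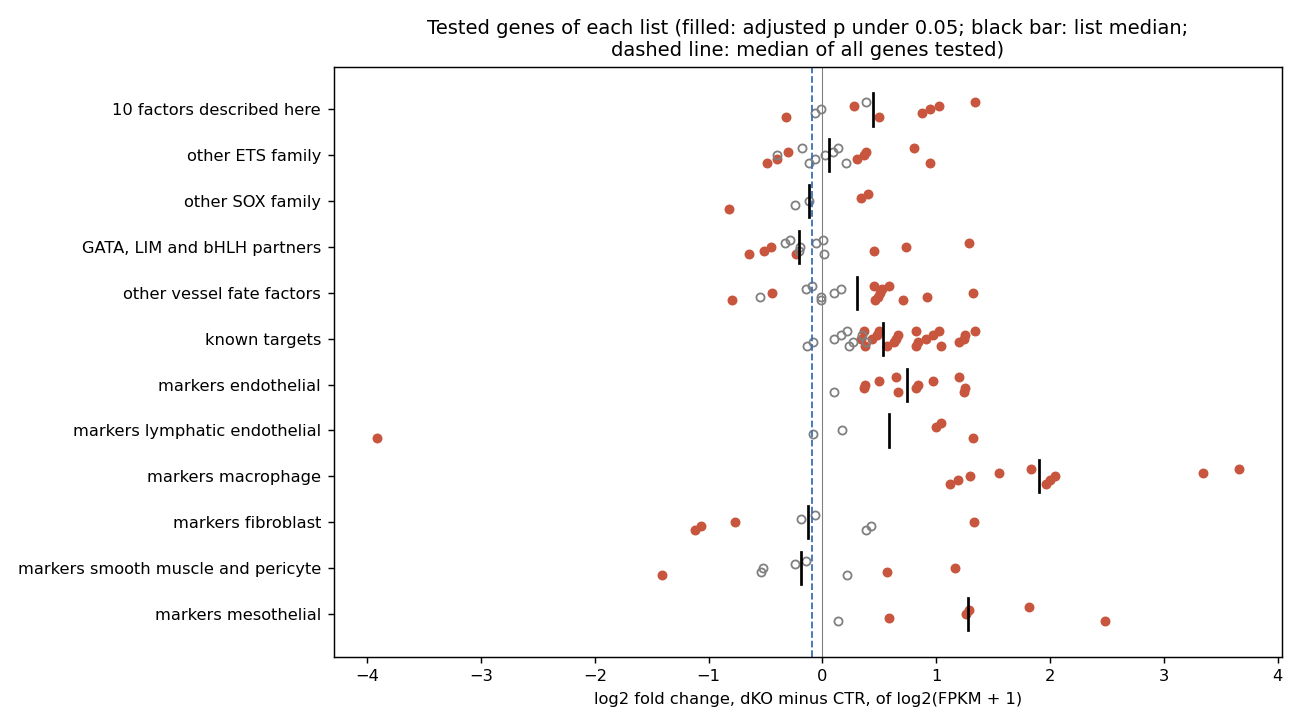
Log2 fold change (horizontal axis, dKO minus CTR, of log2(FPKM + 1)) of each tested gene in 12 gene lists, filled where limma gave an adjusted p under 0.05, with the list median as a black bar and the median of all genes tested as a dashed line. The median of the 10 factors (0.44) lies near that of their targets (0.53), and the macrophage markers lie furthest to the right (median 1.90). The isolated point at the left is Mmrn1, listed at 0 in dKO, so its plotted value depends on the added 1.

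Other cell types were present to different degrees. Of 6 mesothelial markers 5 were higher and none lower, of 6 tested lymphatic markers 3 were higher and Mmrn1 lower, of 8 smooth muscle and pericyte markers 2 were higher and 1 lower, and of 8 lung epithelial markers 1 was higher. The most abundant gene of each list was Msln at 15.8 FPKM in CTR and 42.9 FPKM in dKO, Lyve1 at 104 and 119 FPKM (CTR and dKO means, here and in what follows), Acta2 at 773 and 518 FPKM, and Sftpc at 180 and 192 FPKM. Lyz2 of the macrophage list was at 746 and 1868 FPKM, and Col1a1 of the fibroblast list at 1173 and 572 FPKM. Of 3 tested markers of mast cells and megakaryocytes, which also express Gata2, Tal1 and Fli1, 1 was higher, Pf4, at 15.4 ± 9.94 FPKM in CTR and 75.8 ± 23.9 FPKM in dKO (SD, n = 6 each), and this list summed to 23.9 to 52.7 FPKM in CTR and 68.3 to 123 FPKM in dKO. The rise of that sum rests on Pf4. Kit was at 13.0 and 14.1 FPKM, Cpa3 at 2.16 and 3.16 FPKM, and Mcpt4, Cma1 and Gp9 were below 0.1 FPKM. The megakaryocyte marker Itga2b, under the expression minimum, was at 0.648 ± 0.127 FPKM in CTR and 0.243 ± 0.0692 FPKM in dKO (SD, n = 6 each) without overlap. Apart from Pf4, the markers named from this list were chosen after their values were seen. No lymphocyte, erythroid or retina marker reached the expression minimum. Their most abundant genes were Cd4 at 0.073 and 1.32 FPKM, Alas2 at 0.590 and 0.115 FPKM, and Rcvrn at 0.142 and 0.0917 FPKM. The lymphocyte markers Cd3e and Cd3d were at 0 FPKM in CTR and at 0.0023 and 0.0052 FPKM in dKO, so Cd4 does not stand for that list. Both were chosen after their values were seen. The retina list, checked because the extraction text of the labels names that tissue, summed to 0.0646 to 0.605 FPKM in CTR and 0.119 to 0.414 FPKM in dKO. The part of blood, fibroblast and mesothelial cells in the levels of the 10 factors was not tested.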

How the data were processed

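RNA-seq was measured in MLECs from 6 CTR and 6 dKO samples. The authors deposited 1 table of FPKM per gene for all 12 libraries. The paper names STAR as the aligner, whereas the submitters' processing notes list HISAT2 2.1.0, Bowtie2 2.2.3, TopHat2, DESeq2 and mm39, and the library kit differs between the sources as well. The columns named CTR matched the control samples, and the columns named TAM were given to dKO by elimination, since tamoxifen went to both groups; 0 columns were left unused. The extraction text in the labels speaks of retina.

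Gene symbols and loci came from GENCODE vM39 (GRCm39), which matched 27706 of 28689 IDs. Every FPKM value corresponded to a whole number of fragments within 0.001 fragments plus a relative 2e-08 (100% of values), which gave the library totals. A gene was tested if 6 or more libraries reached 1 FPKM (12467 genes), with limma 3.58.1 (trend, R 4.3.3) on log2(FPKM + 1) with group as the term, and p-values were adjusted by Benjamini-Hochberg over all genes tested. Fold changes are on this scale and understate those of low genes. Single factors and ratios were also tested by two-sided exact permutation. In simulated libraries of this comparison (12570 genes tested), 99 of 100 genes with a planted log2 change of 1 and 47 of 99 with 0.5 were recovered, and 12 of 12371 unchanged genes were called. The simulation gave all genes the same setting of spread between libraries and left most genes unchanged, whereas 53.1% of the genes passed in the data. These rates therefore do not carry over to factors with a wider spread.

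The 10 factors and the gene lists were chosen with earlier results of these data known, so no p-value is given over a list. Genes named are the 10 factors, Sp1, Sp3, the 3 largest called changes and the most abundant gene of each factor or target list, and the most abundant gene of each marker list; others are marked as chosen after their values were seen, except Nfix, which overlaps Lyl1. Alternatives were other pseudocounts, filters, scalings, limma-voom on the recovered fragments, a robust fit, a replicate block and leaving out each library.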

Additional observations from a re-analysis of the deposited data

Results flagged for a closer look

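In 3 of 34 groups of 6 values a single library lay far from the other 5, where chance gives about 1 in 20 groups, or 1.7 here. Sox7 was 10.8 FPKM in dKO replicate 5, against 6.37 to 7.78 FPKM in the other dKO libraries. Foxf1 was 17.8 FPKM in the same library, against 11.5 to 13.2 FPKM in the others. Gata2 was 6.23 FPKM in dKO replicate 4, against 3.50 to 4.41 FPKM in the others. These are the 2 dKO libraries with the highest endothelial marker level, 1.56 in replicate 5 and 1.62 in replicate 4 relative to the geometric mean of the 12 libraries, and the part of that level in the 3 values was not tested.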

How the results depend on the processing

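Of the 10 factors, 5 to 8 passed the test under the 11 other settings and 6 to 8 without 1 library, where the 5 are of 7 tested. In the main fit 7 passed, beside 53.1% of all genes tested, and with marker scaling 6 passed, beside 85.0%. Between groups, 4 to 5 factors did not overlap under other scalings and 4 to 6 without 1 library, beside 4 factors and 27.4% of all genes in the main setting. The sets differ, since with marker scaling the 4 were Sox7, Sox17, Nr2f2 and Foxf1, each lower in dKO. Erg, Fli1, Sox18 and Tal1 then overlapped, Sox18 with a CTR maximum of 24.5 and a dKO minimum of 22.4. For the remaining settings the share of all genes was not computed. The log2 threshold of 1.5 was passed by 0 factors in any setting, though Sox18 came close at 1.49 under limma-voom. Erg and Sox18 kept their call under all 23 alternatives. Of 273 values of single genes, 235 kept direction and call, 15 lost and 10 gained the call, and 13 changed sign. The changes of sign were small for Foxf1 (0.036 with quantile normalization, 0.072 under median-of-ratios scaling, 0.077 under limma-voom, and −0.099 to 0.026 over the fits without 1 library, above 0 without CTR replicate 6 or dKO replicate 2, 3, 4 or 6) and Sox7 (0.011 with scaling by median-of-ratios and 0.014 with voom). Scaling to the endothelial markers turned Sox17 to −0.42, Gata2 to −0.25 and Tal1 to −0.0057, which its construction allows since the markers themselves rose. The call of Sox17 was also lost with no filter and with TPM, and that of Nr2f2 with limma-voom. A minimum of 5 FPKM leaves Gata2, Tal1 and Lyl1 out. The ratio of Sox7 to Sox17 missed the threshold as FPKM + 1 (−0.35, adjusted p = 0.0505, exact permutation) and spanned −0.50 to −0.33 without 1 library; Erg to Fli1 spanned −0.0053 to 0.080.

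Same-numbered libraries correlated at −0.11 to 0.57, and 2 of 6, replicates 1 (0.44) and 4 (0.57), correlated best with their own number. These correlations do not settle whether replicate numbers pair the libraries. With the replicate block 8 factors passed, Gata2 among them (adjusted p = 0.00932, limma), and the share of all genes was not computed for this setting. In the exact sign-flip test of 6 such pairs, the ratios Sox7 to Sox17 (−0.40, adjusted p = 0.104), Sox7 to Sox18 (−1.48, adjusted p = 0.0781) and Sox17 to Sox18 (−1.08, adjusted p = 0.0781) did not pass, although the last 2 reached the smallest p that 6 pairs allow before adjustment. Low depth limits Tal1 (73 to 221 fragments per library) and Lyl1 (26 to 184).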
